A study of Danio rerio with 3 samples.

Results

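Zebrafish embryos whose nuclear pores had been blocked were compared with control embryos of the same outer shape, gene by gene, over 14158 genes of the 25386 in the expression table. A gene was measured in this comparison when it stood at FPKM (fragments per kilobase of transcript, scaled to all mapped fragments) of at least 1 in either library. The treated library came from wild-type embryos that had received 1 nl with 0.65 ng of wheat germ agglutinin (WGA) in the yolk at the 1-cell stage and were collected at 5 hours post fertilisation (hpf), when they had a dome-like shape. A further library came from embryos given the same WGA dose and collected at 4.3 hpf. The control library came from wild-type embryos at 4.3 hpf, the dome stage, for which no treatment is listed. Poly(A) RNA from whole embryos without chorions was sequenced, with 1 library in each of the 3 groups. The labels list no mock injection, so that any effect of injection cannot be told apart from that of WGA, and they do not state how many embryos made up a library. The treated library at 5 hpf is also older than the control at 4.3 hpf, and there is no control at 5 hpf. In this comparison age and WGA therefore cannot be told apart.

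Wheat germ agglutinin is a plant lectin that binds N-acetylglucosamine, the sugar carried by many proteins of the nuclear pore, and thereby hinders the passage of proteins into and out of the nucleus. The early zebrafish embryo lives on RNA and protein stored in the egg until its own genome is switched on around the mid-blastula transition, when maternal RNAs also begin to be cleared. Dome is the stage at which the yolk bulges into the blastoderm and epiboly begins, with an outer enveloping layer, a yolk syncytial layer and deep cells that will form the embryo proper.

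With 1 library per group no difference has a replicate check and no p-value was computed. The 2 WGA libraries differed by 2-fold or more in 152 of 13478 genes (1.13%), but they differ in age and are no replicates, so that this share mixes time with noise. The libraries held 13128 genes at FPKM of at least 1 in WGA at 5 hpf, 13128 in WGA at 4.3 hpf and 13739 in the control. Absolute depth is unknown from FPKM, so no counting interval is given. Markers of the labelled tissue were present in every library. The 9 enveloping layer markers summed to 251.3 FPKM in WGA at 5 hpf, 115 FPKM in WGA at 4.3 hpf and 669 FPKM in the control, and the 7 yolk syncytial layer markers to 192, 92.9 and 636 FPKM in the same order, with apoa1b listed at 0 in all 3. The 9 deep cell markers summed to 1505, 1435 and 2232 FPKM and the 6 germ plasm markers to 588, 575 and 262 FPKM. Few genes carried these sums. Of the deep cell sum nanog held 968, 935 and 1094 FPKM and pou5f3 419, 424 and 717 FPKM, and smaller markers such as tbx16 had 39.7, 23.4 and 161 FPKM. In the germ plasm set buc (365, 350 and 70.7 FPKM) and tdrd6 (39.9, 38.7 and 3.20 FPKM) were higher, while ddx4, nanos3, dazl and dnd1 lay within 2-fold of control. Marker sets of blood and vessel, muscle, neurons, neural crest and hatching gland or gut each summed to at most 2.44 FPKM in any library. Of longer lists for those types, the neural crest list held foxd3, at 4.34 FPKM in WGA at 5 hpf, 5.37 FPKM in WGA at 4.3 hpf and 21.4 FPKM in the control, and the neuron list had elavl3 (0.23, 0.40 and 2.24 FPKM) and stmn2a (0.35, 0.31 and 2.31 FPKM) lower among 5 measured genes, with most of its level in tubb5 (12.7, 13.3 and 17.9 FPKM). In whole embryos, fewer cells of a type and less RNA per cell cannot be told apart.

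Of the measured genes, 1122 (7.92%) were lower in WGA embryos at 5 hpf by 2-fold or more and 751 (5.3%) were higher. Folds are ratios of (FPKM + 1), which understate the change of genes with low values. Genes lower by 4-fold or more numbered 231 (1.63%) and genes higher by as much 81 (0.572%), and at 8-fold there were 28 lower and 4 higher. The median log2 ratio of WGA at 5 hpf over control was -0.02 (SD over genes 0.70), with 5% of genes below -1.29 and 5% above 1.03. Lower genes were 59.9% of those counted. When FPKM was scaled so that the cytosolic ribosomal protein genes had a median ratio of 0, the median of all genes moved from -0.02 to 0.33 and lower genes made up 33.3% (816 lower and 1633 higher). Directions given below are for the deposited FPKM. List medians that turn under a scaling are named, and single genes slightly below control can likewise turn positive under the ribosomal protein scaling. In either direction 13.2% of genes passed 2-fold. The WGA library at 4.3 hpf, which has the same age as the control, had 1280 of 14263 genes lower (8.97%) and 1028 higher (7.21%) against the same control library.

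**Figure D1:**
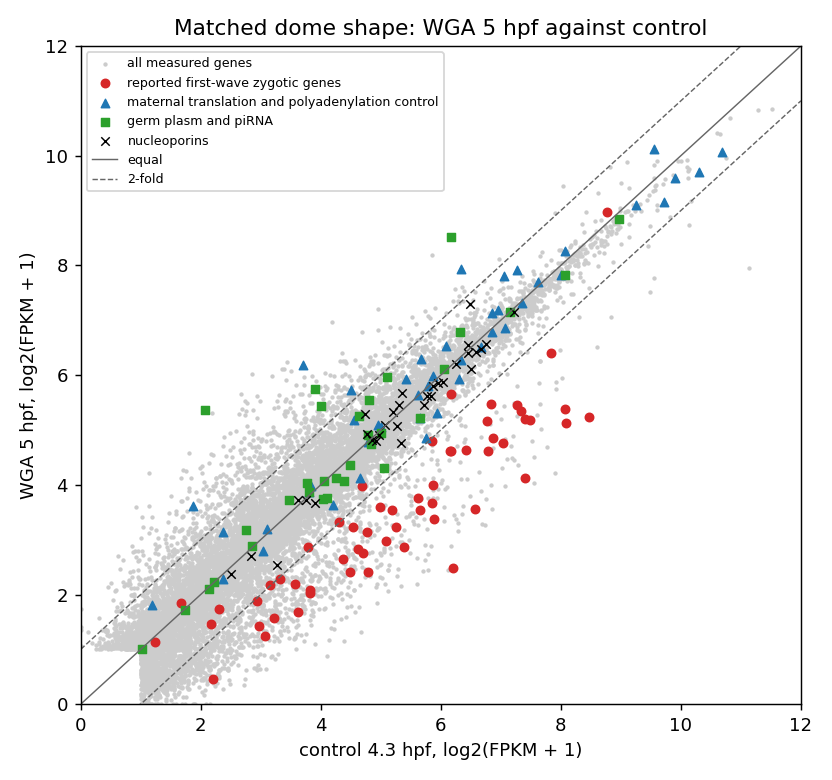
Each point is a measured gene, with log2(FPKM + 1) in WGA at 5 hpf on the vertical axis and in the control at 4.3 hpf on the horizontal axis; dashed lines mark 2-fold and coloured symbols mark 4 gene lists. Of 57 first-wave zygotic genes 47 lie below the lower dashed line, while the 32 nucleoporin genes stay between the lines.

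The lower genes together took up 1.87% of the FPKM sum in WGA embryos at 5 hpf, 1.81% in WGA embryos at 4.3 hpf and 7.33% in control embryos. Their median level was 2.16 FPKM in WGA at 5 hpf, 1.92 FPKM in WGA at 4.3 hpf and 8.40 FPKM in the control. The higher genes took up 5.80%, 6.10% and 1.94% of the sums in the same order, with median levels of 19.0, 20.7 and 6.19 FPKM. Both sets were chosen by the ratio of WGA at 5 hpf to control, so the direction of these differences is set by that choice. WGA at 4.3 hpf was not used in the choice but is set against the same control library. Genes present in one library and absent from the other were not among them at FPKM of at least 5: no gene at that level in the control was below 0.1 FPKM in WGA at 5 hpf, and none the other way. Of genes at FPKM of at least 5 in the control, 23 were below 1 FPKM in WGA at 5 hpf, and 10 genes showed the reverse. Lower genes made up 9.02% of the genes whose higher level was 1 to 5 FPKM, 9.24% at 5 to 20 FPKM, 5.68% at 20 to 100 FPKM and 6.77% at 100 FPKM or more. Higher genes made up 1.67%, 7.01%, 7.78% and 3.08% of these classes, so that they outnumbered lower genes at 20 to 100 FPKM and not in the other classes. Many genes lay close to the boundaries. Within 0.1 log2 units of 2-fold there were 157 genes inside and 182 outside on the lower side, and 145 inside and 177 outside on the higher side. On the lower side psma1 stood just inside, at 2.72 FPKM in WGA at 5 hpf and 6.45 FPKM in the control, and scocb just outside, at 2.55 and 6.08 FPKM. On the higher side plekha1b stood just inside, at 4.32 and 1.66 FPKM, and sin3aa just outside, at 33.8 and 16.4 FPKM. The higher value of 122 genes lay at or within 0.05 above the floor of FPKM 1, and that of 147 genes within 0.05 below it. Of these atox1 (1.00 and 0.85 FPKM) was kept and akap6 (0.99 and 0.94 FPKM) was left out.

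Genes far below control by the naming rule were of several kinds. The Hairy-related repressor gene her5 had 4.59 FPKM in WGA at 5 hpf, 17.5 FPKM in WGA at 4.3 hpf and 72.8 FPKM in the control, the lowest log2 ratio by the naming rule (-3.72). It was thus further from control in the later WGA library than in the earlier one. The zinc-finger gene blf had 36.7, 53.9 and 354 FPKM in the same order. The vestigial-like cofactor gene vgll4l had 34.2, 39.4 and 270.1 FPKM. In all of these both WGA libraries lay far below the control. Other genes near the bottom were lpar3, which encodes a receptor for lysophosphatidic acid (1.92, 3.29 and 19.3 FPKM) and epyc, which encodes a small proteoglycan (1.62, 2.28 and 17.0 FPKM). The mitochondrial carrier gene slc25a22 stood at 18.8, 22.7 and 129 FPKM, the lowest ratio of 196 measured solute carrier genes. Of those 196 genes 6 were lower and 13 higher, against 7.92% and 5.3% over all genes. Of 57 measured genes reported elsewhere as first-wave zygotic genes, 47 were lower by 2-fold or more, 0 were higher, and 55 lay below control (median log2 ratio -1.79, SD among members 0.79). That list was drawn up with earlier results of these data known and is not independent evidence of its direction.

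The enveloping layer, the flat epithelium that covers the blastoderm, had 14 of 24 measured genes lower, 0 higher and a median log2 ratio of -1.22 (SD among members 0.91). Its regulators and its keratins behaved unequally. The Grainyhead-like factor gene grhl3 had 26.3 FPKM in WGA at 5 hpf, 27.9 FPKM in WGA at 4.3 hpf and 129.6 FPKM in the control (log2 ratio -2.26). For klf17, which encodes a Krüppel-like factor of this layer, the values were 23.6, 32.8 and 109 FPKM. The AP-2 factor gene tfap2a had 8.41, 10.7 and 37.0 FPKM. In these 3 regulator genes the later WGA library lay no closer to control than the earlier one. The keratin gene krt8 had 84.5 FPKM in WGA at 5 hpf, 22.2 FPKM in WGA at 4.3 hpf and 159 FPKM in the control. The keratin gene krt4 had 43.7, 13.1 and 113 FPKM, and krt92 had 11.4, 1.73 and 24.7 FPKM. The annexin gene anxa1a had 21.2, 5.18 and 34.7 FPKM. In all 4 of these structural genes the later WGA library lay between the earlier one and the control. Of 10 measured keratin genes 4 were lower at 5 hpf by 2-fold or more, namely krt97, krt18, krt4 and krt92, and 0 were higher (median -0.84). Under ribosomal protein scaling krt4 (-0.98) and krt92 (-0.69) fell short of 2-fold, as did krt92 with a pseudocount of 5 (-0.86). In the adhesion list 4 of 37 genes were lower, against 7.92% over all genes. These were the tight junction claudin genes cldne, cldnb, cldnf and cldnc, with cldne at 23.5, 10.3 and 69.8 FPKM. Both cldnf and cldnc fell short of 2-fold with a pseudocount of 5 (-0.57 and -0.32) and under ribosomal protein scaling (-0.83 and -0.92). The other 33 of 37 adhesion and junction genes lay within 2-fold, among them cdh1, the E-cadherin gene, at 97.5, 123 and 128 FPKM. The enveloping layer markers summed above include 7 of the genes named here, so that their sum is no separate measure of the layer.

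The yolk syncytial layer, a ring of nuclei in the yolk that drives epiboly and later feeds the embryo, had 9 of 13 measured genes lower and 0 higher (median -1.20, SD among members 0.56). The Mix-type homeobox gene mxtx1 had 5.73 FPKM in WGA at 5 hpf, 2.84 FPKM in WGA at 4.3 hpf and 25.04 FPKM in the control. Its relative mxtx2, needed to form the layer, had 34.7, 31.2 and 108 FPKM. The endodermal and yolk factor genes gata6 and hnf4a had 8.23, 1.19 and 20.1 FPKM and 4.38, 0.76 and 15.2 FPKM. The lipid carrier gene apoeb had 133, 56.0 and 457 FPKM. For each of the 5 genes the later WGA library lay above the earlier one and below the control. Genes linked to the shape change passed 2-fold about as often as the 13.2% of all measured genes. Of 27 genes linked to epiboly movements 23 lay within 2-fold, 3 were lower, among them mxtx2, and the T-box gene eomesa was higher, and the median of -0.05 (SD among members 0.75) lay above 0 when FPKM was scaled to TPM or to ribosomal protein genes. Of 41 actin, myosin and tubulin genes 5 passed 2-fold, also near that share (median -0.20, SD among members 0.55, positive under ribosomal protein scaling). All 5 were lower, among them the tropomyosin gene tpm4b, the tubulin gene tubb2b and the thymosin gene tmsb. The level of tmsb was listed at 0 in both WGA libraries and at 1.28 FPKM in the control, close to the floor of FPKM 1.

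**Figure D2:**
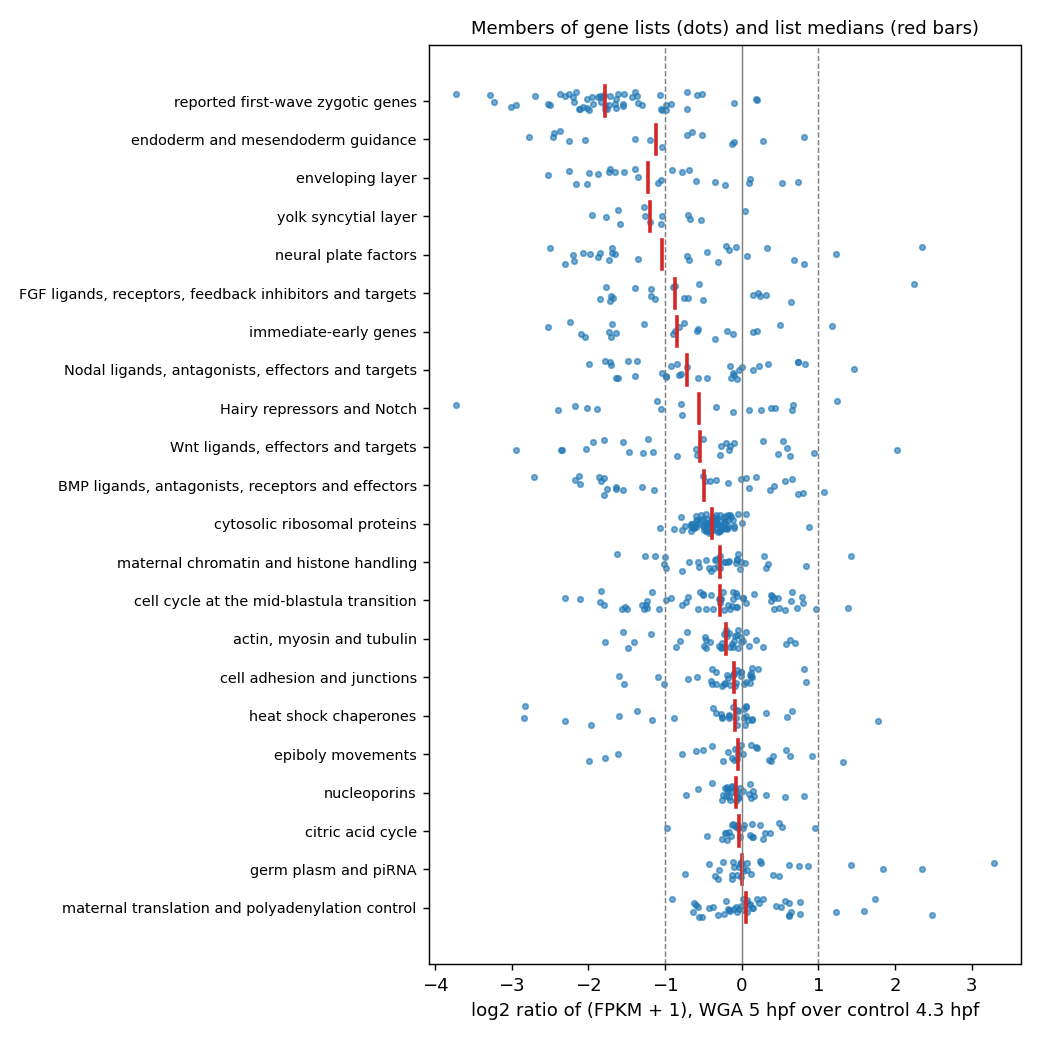
The log2 ratio of (FPKM + 1) in WGA at 5 hpf over control is on the horizontal axis; each dot is a measured member of the gene list named at the left and each red bar is the list's median. The first-wave list has its median at -1.79 and the lists of maternal translation, germ plasm, the citric acid cycle and nucleoporins have theirs within 0.08 of 0.

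Ligands, antagonists and targets of the patterning signals were among the lower genes. Bone morphogenetic proteins (BMPs) set the dorsal to ventral axis. Of 30 measured genes of that pathway 14 were lower and 1 higher, against 7.92% and 5.3% over all genes (median -0.50, SD among members 1.11). The ligand gene bmp2b had 6.86 FPKM in WGA at 5 hpf, 7.11 FPKM in WGA at 4.3 hpf and 33.0 FPKM in the control, and bmp7a had 7.51, 3.70 and 28.5 FPKM. Among the antagonists, chordin (listed as chd) had 7.79, 3.72 and 26.4 FPKM and the pseudoreceptor gene bambia 10.6, 10.4 and 49.6 FPKM. The target gene id1, which encodes an inhibitor of basic helix-loop-helix factors, had 40.5, 42.6 and 269.7 FPKM, the lowest ratio of the list (-2.70). Ligand, antagonist and target were thus low together. The ventral repressor genes vox, ved and vent were lower at log2 ratios of -1.79, -1.55 and -1.3. The gene that was higher was gdf6a, another BMP ligand, at 3.79, 4.42 and 1.28 FPKM. The related ligand gene bmp4 stood at 2.61, 2.28 and 2.17 FPKM.

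Nodal signals induce mesoderm and endoderm. In that list 10 of 33 genes were lower and 1 higher, against 7.92% and 5.3% over all genes (median -0.71, SD among members 0.88). The ligand gene ndr1 had 6.30 FPKM in WGA at 5 hpf, 5.04 FPKM in WGA at 4.3 hpf and 12.8 FPKM in the control, within 2-fold on the scale used. Its feedback antagonist gene lft2 had 3.10, 2.89 and 13.2 FPKM. The T-box target tbx16 had 39.7, 23.4 and 161 FPKM, and the notochord homeobox gene noto had 18.2, 11.3 and 61.9 FPKM. These targets and this antagonist, named for their large ratios, were further below control than ndr1. The T-box target gene ta, at 8.95, 2.75 and 18.7 FPKM, lay within 2-fold, as did 22 of the 33 genes. The transducer genes foxh1 and smad2 stood within 2-fold, at 82.1, 79.9 and 85.5 FPKM and 135, 162 and 75.9 FPKM. The receptor gene acvr2aa was the gene that was higher, at 19.7, 20.03 and 6.51 FPKM. Among 16 endoderm and guidance genes 9 were lower and 0 higher, beside the same shares over all genes (median -1.12, SD among members 1.11). That list holds a chemokine axis that steers endoderm and germ cells, and its named parts were low together. The ligand gene cxcl12a had 2.05, 2.09 and 13.6 FPKM, the receptor genes cxcr4a and cxcr4b had 9.95, 11.5 and 73.8 FPKM and 11.2, 14.0 and 65.8 FPKM, and the scavenger receptor gene ackr3b had 4.83, 7.55 and 30.8 FPKM. The second ligand gene cxcl12b, at 3.95, 2.87 and 6.76 FPKM, lay within 2-fold. The apelin-type ligand gene apela had 4.33, 2.98 and 26.5 FPKM and its receptor gene aplnra 9.73, 5.94 and 43.4 FPKM. The second receptor gene aplnrb had 49.4, 48.0 and 71.1 FPKM, within 2-fold.

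In the Wnt list, 11 of 28 genes were lower and 1 higher (median -0.54, SD among members 1.16). The Frizzled receptor genes fzd7a and fzd8a had 9.38 FPKM in WGA at 5 hpf, 10.6 FPKM in WGA at 4.3 hpf and 51.5 FPKM in the control, and 2.91, 3.82 and 15.06 FPKM. The Dishevelled-binding antagonist gene dact1 had 1.33, 1.91 and 10.9 FPKM, and the target gene sp5a had 2.22, 1.3 and 11.4 FPKM. Going the other way, znrf3, whose product removes Frizzled receptors from the cell surface, had 7.16, 10.2 and 1.00 FPKM (log2 ratio 2.03). Both WGA libraries lay on the same side of control for each of these genes. The Dishevelled gene dvl2 stood level, at 69.9, 61.5 and 70.4 FPKM. The fibroblast growth factor (FGF) list, with a median of -0.87 and an SD among members of 1.02, counted 9 lower members and 1 higher of 21. The ligand gene fgf3 had 2.55, 1.75 and 11.1 FPKM and the receptor gene fgfr4 had 4.90, 3.82 and 20.2 FPKM. The feedback phosphatase gene dusp6, a common readout of FGF signalling, had 5.76, 6.59 and 21.0 FPKM. Its ETS-factor targets parted. The factor gene etv4 had 14.6, 9.40 and 39.7 FPKM, while etv5a had 147, 138 and 30.1 FPKM (log2 ratio 2.25). In the Hairy and Notch list 7 of 18 genes were lower and 1 higher (median -0.55, SD among members 1.32). They include lfng, which encodes a glycosyltransferase that modifies Notch (9.65, 12.22 and 47.1 FPKM), and hey1 (3.05, 2.68 and 14.0 FPKM), whereas its relative hey2 was the higher one (5.43, 5.38 and 1.73 FPKM). Retinoic acid and Hedgehog genes had 1 lower and 1 higher of 14 and of 12, near the shares of 7.92% and 5.3% over all genes. They included the retinoic acid binding protein gene crabp2b (lower, -1.63), and gas1b (lower, -1.06) and the Hedgehog antagonist gene hhip (higher, 1.15).

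Neural plate factors had 13 of 26 genes lower and 2 higher (median -1.03, SD among members 1.27). The SoxC gene sox11a had 9.38 FPKM in WGA at 5 hpf, 10.3 FPKM in WGA at 4.3 hpf and 57.9 FPKM in the control. The zinc-finger gene zic2b had 35.8, 27.5 and 169 FPKM. The Iroquois homeobox gene irx7 had 11.7, 20.9 and 56.8 FPKM. For these 3 genes both WGA libraries lay well below the control. By symbol family, 5 of 6 measured her and hes genes and 5 of 6 gata genes were lower and none of them higher, at medians of -1.57 and -1.22. With a pseudocount of 5 this held for 3 of the 6 her and hes genes and 2 of the 6 gata genes, and under ribosomal protein scaling for 3 of 6 in each family. Larger families held genes of both kinds, where 7.92% of all measured genes were lower and 5.3% higher. Of 26 forkhead genes 5 were lower and 2 higher, and the highest ratio was that of foxp1a (44.9, 47.2 and 8.60 FPKM). Of 15 nuclear receptor genes 1 was lower and 2 higher. These were nr5a1a (lower, -1.46), the glucocorticoid receptor gene nr3c1 at 18.1, 18.9 and 2.38 FPKM (5.66-fold) and nr2c2 at 9.59, 8.40 and 1.29 FPKM (log2 ratio 2.21). Of 12 ETS genes 1 was lower, etv4, and 3 were higher, etv5a, elk4 (2.03) and elf2a (1.77). Both elk4 (0.97) and elf2a (0.86) fell short of 2-fold with a pseudocount of 5.

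Genes above control included known stored maternal RNAs, but no list of maternal genes stood above it as a whole. Germ plasm and piRNA genes serve the germ line. In that list 4 of 32 were higher and 0 lower, against 5.3% and 7.92% over all genes (median 0.00, SD among members 0.84). The Tudor-domain gene tdrd6 had 39.9 FPKM in WGA at 5 hpf, 38.7 FPKM in WGA at 4.3 hpf and 3.20 FPKM in the control, the highest log2 ratio by the naming rule (3.29). The germ plasm organiser gene buc had 365, 349.7 and 70.7 FPKM and its relative buc2l 52.5, 73.4 and 14.0 FPKM. A further Tudor gene, tdrd1, had 42.3 FPKM in both WGA libraries and a log2 ratio of 1.43. In these 4 genes both WGA libraries lay above the control. The germ plasm genes ddx4 (vasa), nanos3 and dazl stood level with it, at 140.3, 124 and 142 FPKM, 16.5, 23.2 and 18.02 FPKM, and 13.7, 18.4 and 13.0 FPKM. A list of 45 genes covers control of translation, polyadenylation and decay of maternal RNA. Of these 4 were higher and 0 lower, against 5.3% and 7.92% over all genes (median 0.05, SD among members 0.66). These were cpeb1b, which encodes a cytoplasmic polyadenylation factor (71.8 and 65.9 FPKM in the WGA libraries, log2 ratio 2.48), cnot7, which encodes a deadenylase (11.2, 12.18 and 2.65 FPKM), lsm14b, which encodes a protein of stored RNA granules (242, 204 and 79.4 FPKM), and ythdf3, which encodes a reader of methylated adenosine (52.2, 57.0 and 21.7 FPKM). The egg regulators zar1, eif4e1b and btg4 stood level with the control at 5 hpf, at 33.0, 31.6 and 30.0 FPKM, 32.3, 27.2 and 31.1 FPKM, and 48.9, 108 and 47.9 FPKM. Of 8 reported targets of miR-430, the zygotic microRNA that clears maternal RNA, 4 were lower and 0 higher (median -1.14, SD among members 1.19). Those 4 were ackr3b, cxcl12a, lft1 and lft2, and the maternal targets nanos3, dazl and tdrd7a had log2 ratios of -0.12, 0.07 and 0.86.

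**Figure D3:**
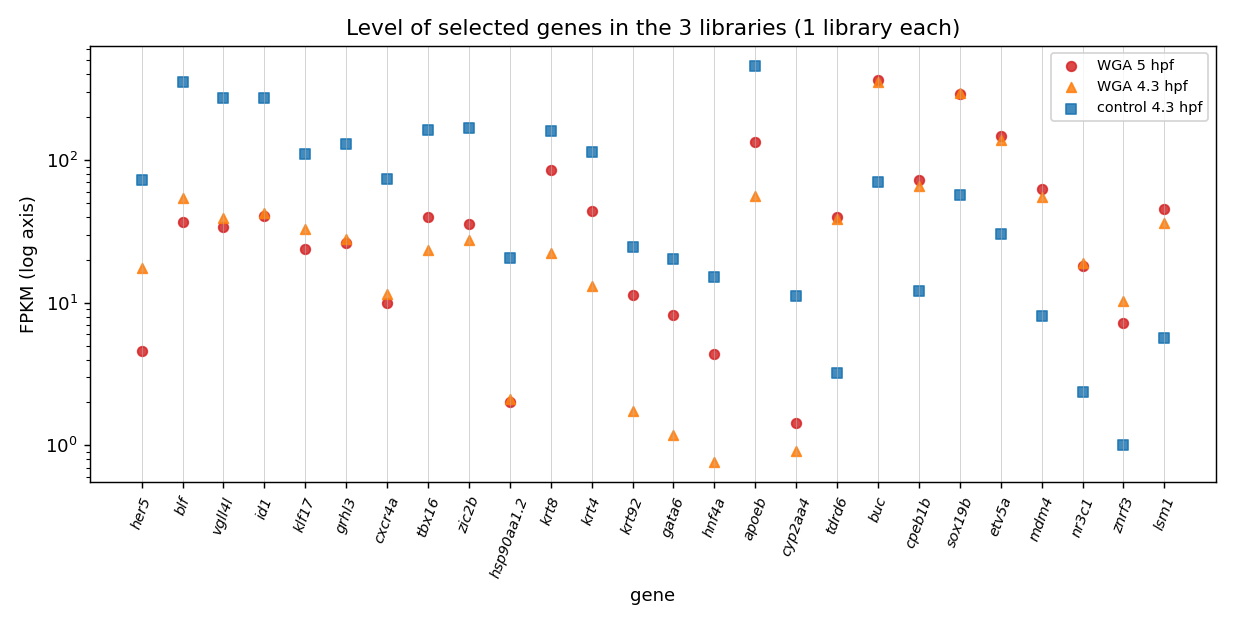
Level in FPKM, on a log axis, of selected genes along the horizontal axis in WGA at 5 hpf (circles), WGA at 4.3 hpf (triangles) and control at 4.3 hpf (squares), with 1 library each. For krt8, krt4, krt92, gata6, hnf4a and apoeb the circle lies between triangle and square, while for tdrd6, buc and cpeb1b circle and triangle lie close together above the square.

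Regulators that switch on the zygotic genome were split. Of 26 such genes 5 were lower and 3 higher, against 7.92% and 5.3% over all genes (median -0.14, SD among members 1.13, positive under ribosomal protein scaling). The stored pluripotency factor genes nanog and pou5f3 had 968 FPKM in WGA at 5 hpf, 935 FPKM in WGA at 4.3 hpf and 1094 FPKM in the control, and 419, 424 and 717 FPKM. The maternal SoxB1 gene sox19b had 292, 293 and 56.6 FPKM, the T-box gene eomesa 148, 142 and 58.7 FPKM, and the histone acetyltransferase gene crebbpa 28.9, 30.7 and 8.83 FPKM. These were the 3 that were higher. Below control were mych, a Myc-type gene (27.5, 23.2 and 133 FPKM), the SoxB1 genes sox19a and sox3, yy1a (11.5, 7.22 and 44.5 FPKM), and the bromodomain gene brd2a (57.1, 76.4 and 198 FPKM). Of 22 immediate-early genes, which answer growth signals quickly, 9 were lower and 1 higher (median -0.85, SD among members 0.98), with the flow-responsive factor gene klf2a at 6.29, 7.99 and 40.9 FPKM and klf6a, the higher one, at 14.2, 12.9 and 5.69 FPKM.

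The other genes at the top were of mixed function. The adaptor gene sh2d5 had 64.2 FPKM in WGA at 5 hpf, 74.7 FPKM in WGA at 4.3 hpf and 6.23 FPKM in the control. The gene mdm4 had 62.6, 55.2 and 8.11 FPKM. The gene lsm1, whose product belongs to the ring that promotes decapping of messenger RNA, had 45.3, 36.01 and 5.70 FPKM. The cofilin phosphatase gene ssh2a had 67.9, 74.6 and 9.48 FPKM, and the lipid transfer gene stard7 had 40.8, 40.5 and 5.47 FPKM. Among these 5 higher genes lsm1 differed most between the WGA libraries (log2 ratio 0.32, later over earlier). The remaining genes of the top 12, dnajc5ga, gpr137c, zbtb21, ccdc69, fam129bb and mtus1a, had log2 ratios between 2.69 and 2.80. In metabolism single enzymes differed while pathways stood near control. Beside the counts that follow, 7.92% of all measured genes were lower and 5.3% higher. Glycolysis and lactate genes had 1 lower and 4 higher of 22 (median -0.04, SD among members 0.82, and above 0 under TPM and ribosomal protein scaling). The higher ones were slc16a1a, which encodes a lactate transporter (5.43, 5.36 and 0.90 FPKM), ldha (12.03, 12.24 and 4.29 FPKM), aldocb and tpi1a. None of 28 citric acid cycle genes and none of 23 tRNA synthetase genes reached 2-fold. In sterol synthesis hmgcs1 (106, 98.4 and 42.7 FPKM) and nsdhl (34.8, 36.4 and 13.7 FPKM) were higher and stard4 lower among 22. The iron genes ireb2, which encodes an iron sensor of translation, and tfr1b, a transferrin receptor gene, were higher at log2 ratios of 1.24 and 1.34, and the metallothionein gene mt2 was lower (-1.15), among 22. The thioredoxin reductase gene txnrd1 was the 1 of 28 oxidative stress genes past 2-fold, at 96.6, 102 and 31.5 FPKM. In the hypoxia list of 17 genes, pfkfb4a (21.6, 21.1 and 5.56 FPKM) and ankrd37 were higher and the carbonic anhydrase gene ca9 was lower (5.73, 3.38 and 27.0 FPKM).

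Genes of the pore that WGA binds stood near control. None of 32 nucleoporin genes reached 2-fold (median -0.08, SD among members 0.28, positive under ribosomal protein scaling). The highest ratio was that of nup35, a scaffold gene, with 156 FPKM in WGA at 5 hpf, 135 FPKM in WGA at 4.3 hpf and 88.5 FPKM in the control. The lowest were those of nupl2 (4.84, 4.60 and 8.69 FPKM) and of nup153, a gene of the nuclear basket (26.3, 40.7 and 39.6 FPKM). Of 45 importin, exportin and Ran genes 4 were lower and 1 higher, near the shares of 7.92% and 5.3% over all genes. Lower were the importin alpha genes kpna2 (14.7, 21.97 and 46.3 FPKM) and kpna5, the export receptor gene xpo1a (36.4, 52.3 and 79.3 FPKM) and nxt2, and the higher one is listed as zgc:153681 (log2 ratio 1.03). The maternal importin gene kpna7 had 50.8, 70.5 and 39.6 FPKM. For kpna2 and xpo1a the later WGA library lay further from control than the earlier one. Enzymes that make or handle the N-acetylglucosamine mark had 1 of 12 higher and 0 lower, beside 5.3% and 7.92% over all genes. The higher one was gnpnat1, a gene of the hexosamine pathway (16.1, 12.19 and 4.66 FPKM). The transferase gene ogt.1 fell short of 2-fold at 29.6, 33.7 and 14.7 FPKM, and the gene of the enzyme that removes the sugar, listed as mgea5, at 19.1, 16.6 and 31.96 FPKM. Of 17 lamina and envelope genes 1 was higher (si:dkey-92f12.2, log2 ratio 1.09) and 0 lower, beside the same shares over all genes.

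Cell cycle genes linked to the lengthening cycles after the mid-blastula transition had 15 of 62 lower and 1 higher (median -0.28, SD among members 0.82, positive under ribosomal protein scaling). Beside this and the other counts below, 7.92% of all measured genes were lower and 5.3% higher. The G1 cyclin gene ccnd1 had 28.8 FPKM in WGA at 5 hpf, 24.8 FPKM in WGA at 4.3 hpf and 147 FPKM in the control. The cyclin-dependent kinase inhibitor genes cdkn1ca and cdkn1cb had 12.6, 6.91 and 48.2 FPKM and 3.82, 2.73 and 19.8 FPKM. The replicative helicase gene mcm6 had 1.93, 1.33 and 9.49 FPKM. These 4 genes were low in both WGA libraries, while 46 of the 62 lay within 2-fold at 5 hpf. The checkpoint kinase gene atr was the higher one, at 8.31, 8.92 and 2.55 FPKM. The mitotic cyclin genes ccnb1, ccnb2 and ccna1, abundant in the egg, were among the 6 largest gains in FPKM although within 2-fold, at 1107, 1096 and 745 FPKM, 884, 804 and 450.3 FPKM, and 948, 823 and 549.6 FPKM. Of the remaining largest gains, buc is given above, mid1ip1l had 493, 512 and 239 FPKM, and the oocyte-type histone gene LOC100332229, which the NCBI table lists under the synonym h2af1o, had 701, 516 and 261 FPKM. The largest losses in FPKM began with zgc:173816 (248, 466 and 2239 FPKM). They also included the elongation factor gene eef1a1l1 (1855, 1443 and 2920.3 FPKM), the chromatin protein gene hmga1a (998, 755 and 1718 FPKM), the RNA-binding protein genes hnrnpa0b (424, 296 and 1126 FPKM) and hnrnpa0l (1823, 1507 and 2493 FPKM) and the histone gene h3f3a (579, 401 and 1153 FPKM). Of the 6, zgc:173816 and hnrnpa0b passed 2-fold, and values of the hnrnpa0 copies are uncertain one by one. Cytosolic ribosomal protein genes lay below control in 80 of 83 cases but passed 2-fold in 1, rplp2 (median -0.38, SD among members 0.24, and 0 by construction under the scaling to these genes).

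The stress lists had no direction common to all of them. Of 34 heat shock chaperone genes 7 were lower and 1 higher, against 7.92% and 5.3% over all genes. Their median was -0.09 (SD among members 0.97, positive under ribosomal protein scaling). The inducible genes hsp90aa1.2 and hsp70.3 had 2.01 FPKM in WGA at 5 hpf, 2.11 FPKM in WGA at 4.3 hpf and 20.5 FPKM in the control, and 4.49, 6.97 and 38.1 FPKM. The small heat shock gene hspb1 had 182, 85.4 and 714 FPKM. In contrast the co-chaperone gene dnajb1a was higher, at 14.8, 15.4 and 3.61 FPKM, and the constitutive genes hspa8, hsp90ab1 and their regulator hsf1 lay within 2-fold, at log2 ratios of -0.26, -0.11 and -0.16. Values of the near-identical hsp70 copies are uncertain one by one. In the endoplasmic reticulum list 2 of 39 genes were higher and 3 lower, near the shares over all genes. The higher ones were herpud1, of protein degradation (115, 116 and 38.8 FPKM), and creld2. The lower ones were the stress factor genes atf4b (4.52, 2.67 and 21.4 FPKM) and atf4a and the translocon gene sec61g. Of 46 apoptosis genes 4 were lower and 2 higher, near the shares over all genes. The 2 higher ones were mdm4, given above, and bmf1 (17.7, 19.5 and 5.93 FPKM). The lower ones were cdkn1ca, the stress genes gadd45ba and gadd45bb, and diabloa. Of 49 lysosome and autophagy genes 1 was lower, the protease gene ctsll, at 10.3, 1.17 and 21.9 FPKM. Its log2 ratio of -1.01 fell short of 2-fold under TPM (-0.99), a pseudocount of 5 (-0.81) and ribosomal protein scaling (-0.66).

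Many zebrafish genes have symbols that differ only in a final a or b. Many such pairs are copies left by an ancient genome duplication, but some are separate genes, such as rgma and rgmb, and the counts below go by symbol. Both members were measured in 1180 such pairs. Of all measured genes with a symbol of their own, 4.66% were lower and 5.82% higher. How often unrelated genes would both pass 2-fold was not computed, so the pair counts are a description only. In 931 pairs both lay within 2-fold, in 17 both were lower, in 15 both were higher, and in 9 they differed in direction. In a further 66 pairs 1 member was lower and in 142 pairs 1 member was higher while the other lay within 2-fold. Among the 9, the Sox genes stood furthest apart. The gene sox19a had 15.4 FPKM in WGA at 5 hpf, 10.7 FPKM in WGA at 4.3 hpf and 63.3 FPKM in the control (log2 ratio -1.97), against the values of sox19b given above (2.35). The bromodomain genes brd2a and brd2b had log2 ratios of -1.78 and 1.045, with brd2b at 29.3, 29.8 and 13.7 FPKM. The membrane protein genes cd82a and cd82b had 1.86, 1.68 and 9.03 FPKM and 81.3, 83.3 and 33.1 FPKM. In each of these pairs the gene below control was named a and the gene above it b. The reverse held for arl4a, golim4 and kif20b, where arl4ab (-1.47), golim4b (-1.0) and kif20bb (-1.03) were the lower genes. The others were the pairs of noct, arl4a, kif20b, golim4 and rgm, and a pair listed as otx1a and otx1b, which the NCBI table calls otx2a and otx1 and which is therefore no pair of copies. Pairs with both members lower included the membrane-bound marcksl1a and marcksl1b (26.3, 20.4 and 125 FPKM, and 216, 129 and 747 FPKM), and pairs with both higher included mllt1a and mllt1b, of transcription elongation, with mllt1a at 39.4, 38.4 and 5.74 FPKM.

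**Figure D4:**
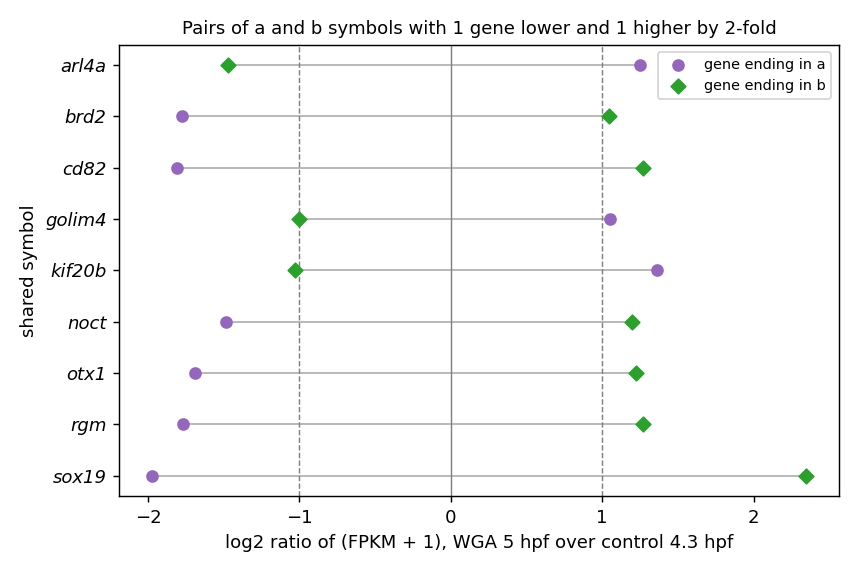
The log2 ratio of (FPKM + 1) in WGA at 5 hpf over control is on the horizontal axis for the 9 pairs of symbols whose genes passed 2-fold in opposite directions; circles are genes ending in a and diamonds genes ending in b. The widest gap is that of sox19, at -1.97 and 2.35, and the pairs shown as otx1 and rgm are not copies of 1 gene.

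Genes without a descriptive name were frequent among the lower ones. Clone or LOC names made up 609 of the 1122 lower genes (54.3%), 111 of the 751 higher genes (14.8%) and 3158 of the 14158 measured genes (22.3%). Among the 11000 measured genes with a symbol of their own, 4.66% were lower and 5.82% higher. Numbered zinc-finger genes parted by number. Of 73 with a number of 700 or above, 24 were lower and 1 higher (median -0.63), with znf995 at 16.5 FPKM in WGA at 5 hpf, 30.9 FPKM in WGA at 4.3 hpf and 169 FPKM in the control, and znf1043 at 24.9, 32.6 and 218 FPKM. Of 68 with a lower number, 2 were lower and 5 higher (median 0.13), with znf106b at 16.5, 15.5 and 2.56 FPKM. Such genes often lie in arrays of near copies, so their values are uncertain one by one.

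Lower genes also lay beside each other. Gene order was taken from the NCBI table of assembly GRCz12tu, in which 13513 measured genes could be placed. Of 915 placed lower genes 326 (35.6%) had an adjacent measured gene that was also lower, against 10.6% of 11864 genes within 2-fold and 10.5% of 734 higher genes. Clone, LOC and numbered zinc-finger genes were then not counted, as gene or as neighbour, but kept their place in the order. A gene flanked only by them could thus have no neighbour counted. The shares with a lower neighbour were 14.2% of 485 lower genes, 6.89% of 9706 genes within 2-fold and 7.77% of 631 higher genes. Runs of 3 or more lower genes in a row numbered 38 with 182 genes, against 7 runs of higher genes with 22 genes. The longest run of lower genes had 17 genes, of which znf1053 has a symbol of its own and the others clone or LOC names. Its levels were 0.27 to 8.37 FPKM in WGA at 5 hpf and 1.91 to 47.6 FPKM in the control. This run lay on chromosome 4. Of the 14 runs of 5 or more lower genes, all lay there except the cyp2aa run on chromosome 23 and the run with drl on chromosome 5. The long runs are thus mostly a feature of chromosome 4. Shares with a lower neighbour were not computed without that chromosome. Named runs included 5 cytochrome P450 genes, cyp2aa12, cyp2aa11, cyp2aa4, cyp2aa8 and cyp2aa9. Of these cyp2aa8 had 14.0 FPKM in WGA at 5 hpf, 9.96 FPKM in WGA at 4.3 hpf and 57.8 FPKM in the control, and the log2 ratios of the 5 ran from -2.31 to -1.16. The repressor genes her11 (6.74, 9.91 and 39.7 FPKM) and her5 lay next to each other and to the prefoldin gene pfdn6, the claudin genes cldnj, cldne and cldnf formed another run, and so did the apolipoprotein genes apoa4b.2, apoeb and apoc1. A run of higher genes held klhl11, buc2l, kbtbd2 and avl9, at log2 ratios of 1.22 to 1.84. Neighbours that are near copies can share reads, and their part in the runs was not tested.

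**Figure D5:**
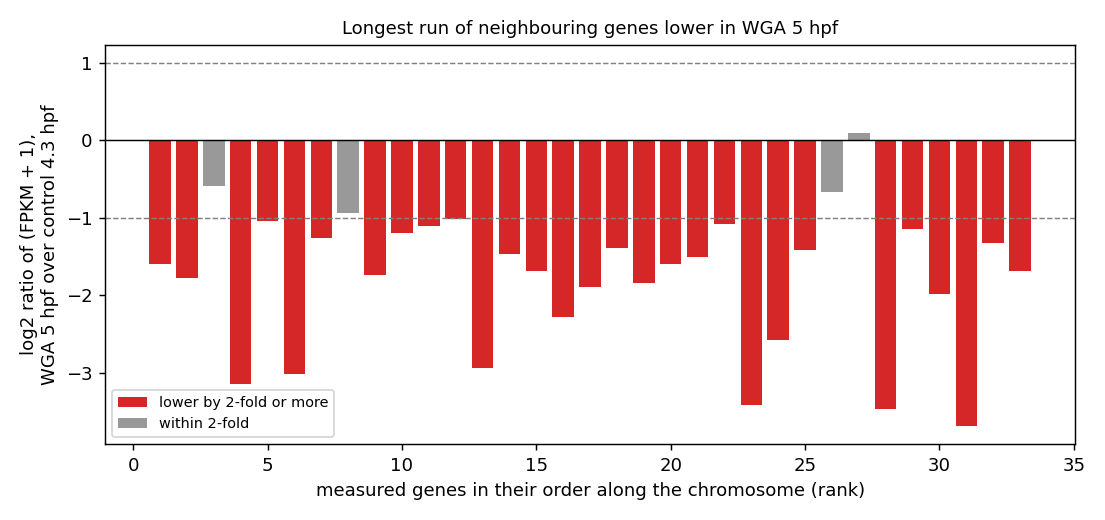
Bars give the log2 ratio of (FPKM + 1) in WGA at 5 hpf over control for consecutive measured genes around the longest run of lower genes, placed by rank along the chromosome; red bars are lower by 2-fold or more and grey bars within 2-fold. The run of 17 lower genes, on chromosome 4, has ratios from -3.41 to -1.02.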

How the data were processed

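The authors deposited 1 table of FPKM values, rounded to 2 decimals, for 25386 genes in 3 libraries. Per the submitters' processing notes the tools were RSEM 1.2.8, Bowtie2 2.2.5 and Trimmomatic 0.36 and the build was GRCz11; their roles and settings are not given in the sources used here. RSEM divides reads shared by near-identical genes by estimate. From the deposited FPKM, log2((FPKM + 1)/(FPKM + 1)) of WGA at 5 hpf over control was computed (Python 3.11.15, pandas 2.3.3) with a pseudocount of 1, where a gene reached FPKM 1 in one library or both. Genes at 2-fold or more were counted. The counting was run on simulated data with set 4-fold changes and no noise. That run checks the arithmetic and not the calls near 2-fold. With 1 library per group there is no test. The FPKM sums were 411178 in WGA at 5 hpf, 401114 in WGA at 4.3 hpf and 430459 in the control.

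Members and lists (47 lists, 1612 of 1653 entries matched, 15 symbol families) were chosen with earlier results of these data known. After values were seen, mismatched entries left the citric acid cycle (dld), immediate-early (ier3ip1) and ribosomal protein (rps6k kinases) lists. Names came from the file and from the NCBI table of assembly GRCz12tu (23416 gene numbers matched), which also gave the gene order. Named genes are the 12 highest and 12 lowest (own symbol, FPKM 5 or more in at least 1 library), the 6 largest gains and losses in FPKM, up to 4 members per list or family by absolute ratio, and every member past 2-fold where a list has 5 or fewer. Other genes were named after their values were seen, as were those of pairs, runs and boundaries and genes called level or within 2-fold. Not every gene the rule names is reported here. Alternatives were other pseudocounts, filters, scalings (TPM, median of ratios, ribosomal protein genes) and folds.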

Additional observations from a re-analysis of the deposited data

How the results depend on the processing

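The number of lower genes was 1696 with a pseudocount of 0.1, 442 with a pseudocount of 5, 723 with a filter at FPKM 5, 231 at 4-fold and 2126 at 1.5-fold, against 1122 as reported. The number of higher genes was 370 with a pseudocount of 5, 1633 under ribosomal protein scaling, 81 at 4-fold and 1876 at 1.5-fold, against 751. Lower genes were 51.6% of those counted with the filter at FPKM 5 and 74.0% at 4-fold. Fewer genes pass a higher fold by construction, and the cause of the other shifts was not tested. Without a filter the yolk syncytial layer median was -0.61 over 22 genes, that of the her and hes genes -0.56 over 15, that of the keratins -0.16 over 17 and that of the neural plate factors -0.16 over 43, and the BMP median was -0.19 over 45, and -0.14 under ribosomal protein scaling. Of 57 list and family medians 23 took the opposite sign in no setting. These include the cytosolic ribosomal protein median, which is 0 by construction under the scaling to those genes. Among 179 named genes past 2-fold none reversed, 43 fell below 2-fold with a pseudocount of 5, 24 under ribosomal protein scaling and 1 under TPM. That none reversed was fixed in advance and is no check. Pseudocounts and filters keep the sign of a ratio, and the scalings shift ratios by less than 2-fold. No paired analysis was possible because each group has 1 library. Alternatives on promoter motifs, gene and protein length and exon number were not run. Depth is unknown from FPKM.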
